A study of Mus musculus with 6 samples.

Results

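Expression of 9 genes encoding neutrophil chemoattractant receptors was followed by bulk RNA-seq of neutrophils purified from the lungs of mice. They were taken by symbol from the 55487 genes of the count table: the formyl peptide receptors Fpr1 and Fpr2, the complement receptors C5ar1, C5ar2 and C3ar1, the lipid receptors Ltb4r1 and Ptafr, and the chemokine receptor Ccr1 with its relative Ccrl2. All 9 of the 9 genes were found, and all 9 were among the 15774 genes tested. The design compares 3 libraries from Mrp8-Cre;TGFbR2-fl/fl mice (mutant) with 3 from Cre-negative TGFbR2-fl/fl littermates (wt), so both groups carry the floxed Tgfbr2 alleles and the mutants alone carry the Cre and EGFP transgene. The transgene is Tg(S100A8-cre,-EGFP)1Ilw, and the floxed allele came from the line B6;129-Tgfbr2tm1Karl/J. In the mutants, Cre under the S100A8 (Mrp8) promoter, which is active in neutrophils and other myeloid cells, deletes part of the TGF-beta type II receptor gene. The labels used here give neither age nor sex of the mice and do not state that each library came from its own mouse, so the p-values reflect only how far these libraries spread, which may be technical.

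Library totals ran from 30403494 to 35906780 counts, and 3 counts in a library corresponded to 0.0829 to 0.102 CPM (the usual scaling of counts to library size, here with sizes adjusted by TMM), a floor that covers counting error only. The deleted gene, Tgfbr2, was at 176, 205 and 181 CPM in mutant replicates 1 to 3 and at 186, 185 and 201 CPM in wt replicates 1 to 3. Its count pools all exons and therefore does not check the deletion. All 12 markers of neutrophils were detected, led by Csf3r, and their summed level was 32389 to 38910 CPM in the mutant libraries and 32177 to 34600 CPM in the wt libraries. Among them, Il1r2 and Trem1 were higher, and S100a8 and Cxcr2 lower, in every mutant library than in every wt library. Of all tested genes, 6.82% were higher and 6.21% lower in this way. S100a8 was at 966 to 1507 CPM in the mutant libraries against 1687 to 1752 CPM in the wt libraries. For Trem1 the lowest mutant library was at 5461 CPM and the highest wt library at 5427 CPM. Of the 14 markers of alveolar macrophages, 4 were higher in every mutant library than in every wt library, against 6.82% of all tested genes, with sums of 802 to 1480 CPM in the mutant libraries and 503 to 739 CPM in the wt libraries, of which Chil3 made up 51.4% on average, while Fabp1 was under 1 CPM. The 12 markers of monocytes and interstitial macrophages summed to 1172 to 1249 CPM in the mutant libraries and 1215 to 1260 CPM in the wt libraries.

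Neutrophils find sites of infection and injury by crawling up gradients of chemoattractants, which they sense through receptors with 7 membrane-spanning segments. Most of these receptors couple to inhibitory G proteins, whose freed beta and gamma subunits activate phosphoinositide 3-kinase gamma and the Rac switches that push the cell front forward. Formyl peptides from bacteria and mitochondria, the complement fragment C5a, leukotriene B4 and platelet-activating factor are classical agonists, and several of them also prime the oxidative burst and degranulation. A few relatives bind the same kind of ligand without signalling through G proteins and shape the response instead.

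Fpr1 and Fpr2 are neighbours on chromosome 17 and arose from a common ancestral gene, so the part of their sequence that reads could confuse was measured first. Their coding regions, of 1092 and 1053 bases, were identical at 69.1% of 1047 aligned bases, and the longest stretch without a difference was 50 bases. That stretch is printed with its flanks, because it is where a read is hardest to assign to one gene of the pair. It is written 5′ to 3′ on the coding strand as GENCODE M21 gives it, with bases shared by both genes in capitals.
Fpr1: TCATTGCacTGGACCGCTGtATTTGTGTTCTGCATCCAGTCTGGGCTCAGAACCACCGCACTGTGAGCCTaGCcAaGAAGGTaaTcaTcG
Fpr2: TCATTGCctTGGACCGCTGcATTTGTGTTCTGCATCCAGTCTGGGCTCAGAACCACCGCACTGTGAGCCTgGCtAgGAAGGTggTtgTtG
In build GRCm38, the Fpr1 stretch lies in its single coding segment on the minus strand at chr17:17877260-17877349, and the Fpr2 stretch on the plus strand at chr17:17893096-17893185. Of the 90 bases shown, 79 were shared. No window of 151 bases, the length of a read, in the longest Fpr1 transcript occurred in a transcript of another gene (0 of 1174 windows), and 14 of 983 windows (1.42%) of the Fpr2 transcript did. The longest run that Fpr2 shared with any other gene was 161 bases, with Gm5966, which had 0 CPM on average. The other 7 receptors had 0 windows in common with another gene, although C5ar2 and Ptafr share shorter stretches of up to 127 and 89 bases with other transcripts. In the annotation, 48 of the 1296 exon bases of Fpr2 also belong to Fpr3 and 127 of the 3561 exon bases of C5ar2 to Gm26473, which stood at 0.0056 and 0 CPM.

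Ccrl2 was the most abundant of the receptor transcripts and C3ar1 was close to the detection limit. Levels were compared between genes as RPKM, that is CPM per kilobase of exon, with the mean and SD over all 6 libraries. Ccrl2, which encodes an atypical receptor that binds the attractant chemerin and displays it to other cells, was at 2100 ± 310 RPKM and ranked 13 of the 15774 tested genes. C5ar1, the signalling receptor for C5a, followed at 987 ± 68.4 RPKM with rank 35. Ccr1, a receptor for CCL3 and related chemokines, was at 710 ± 52.1 RPKM with rank 60. These 3 genes stood apart from one another in every library, since their ranges of 1727 to 2565, 890 to 1069 and 651 to 768 RPKM did not overlap.

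In the middle of the order, Fpr1, the main receptor for formyl peptides, was at 264 ± 28.4 RPKM and Ptafr, the receptor for platelet-activating factor, at 212 ± 30.1 RPKM (SD, 6 libraries). These were the only neighbours in the order whose ranges overlapped, at 225 to 308 and 175 to 247 RPKM. Fpr1 exceeded Ptafr within each of the 6 libraries, but in mutant replicate 2 they were nearly equal, at 248 and 247 RPKM. Ltb4r1, the high-affinity leukotriene B4 receptor, was at 68.3 ± 7.71 RPKM and Fpr2, which also recognises annexin A1 and serum amyloid A, at 45.1 ± 6.82 RPKM. C5ar2, the second C5a receptor, which does not couple to G proteins, was at 19.9 ± 1.58 RPKM with rank 1786. C3ar1, the receptor for C3a, was at 0.176 ± 0.197 RPKM, 113 times below C5ar2, with rank 14521 of 15774, and at 0.103 RPKM without mutant replicate 1.

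**Figure D1:**
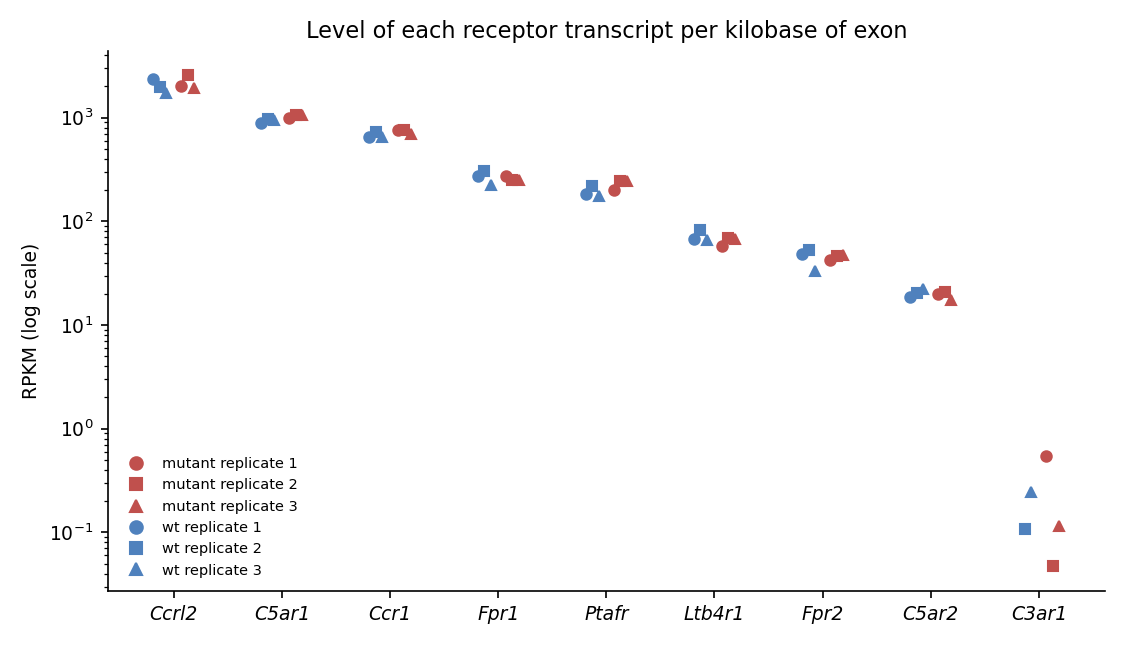
RPKM of each receptor on a log scale, 1 point per library, with the 3 wt libraries on the left (blue) and the 3 mutant libraries on the right (red) of each gene. Ccrl2 lies between 1727 and 2565 RPKM and C3ar1 at 0.539 RPKM or lower; the wt replicate 1 value of C3ar1 is 0 and cannot be drawn.

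The make-up of the receptor set was expressed as each gene's share of the 9 genes' summed RPKM in a library. Ccrl2 took 47.4 ± 3.18% in mutants and 47.6 ± 4.37% in the wt libraries (SD, n = 3 each). C5ar1 took 22.8 ± 1.59% and 22.2 ± 2.38%, and Ccr1 16.3 ± 1.11% and 16.1 ± 1.40%, differences smaller than either SD. The share of Ltb4r1 was 1.42 ± 0.117% and 1.70 ± 0.198%, a difference larger than either SD with groups that overlapped, and that of Fpr1 was 5.67 ± 0.674% and 6.35 ± 0.668%. The 6 genes other than Ccrl2, C5ar1 and Ccr1 each took 7.11% or less in every library. A share falls when another gene's level rises, and Ccrl2 weighs most in it, from 44.9% in mutant replicate 3 to 52.7% in wt replicate 1.

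None of the 9 receptors differed between mutants and wt at an adjusted p under 0.05 by edgeR's quasi-likelihood test, where 1 of the 15774 tested genes (0.00634%) did. At an unadjusted p under 0.05, 1 of the 9 was higher in mutants, Ptafr, against 3.51% of all tested genes, and 0 were lower, against 3.22% (6.73% in either direction). In 1 of the 9, C5ar1, every mutant library lay above every wt library, against 6.82% of all tested genes, and in 0 of the 9 did every mutant library lie below, against 6.21%. Of the 9 log2 fold changes, 6 were positive, 3 were negative and the median was 0.11, whereas the median over all tested genes was 0.0054. DESeq2's Wald test called 0 of the 9, against 0.951% of all tested genes, and gave Ptafr an unadjusted p under 0.05 as well. In sorted bulk RNA, fewer cells of a type and less RNA per cell cannot be told apart.

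The formyl peptide receptors differed by less than the spread between libraries. Fpr1 (ENSMUSG00000045551.7, minus strand of chr17:17876471-17883940, with 2 exons) was at 364, 328 and 335 CPM in mutant replicates 1 to 3 and at 363, 407 and 298 CPM in wt replicates 1 to 3. The mutant values lay inside the wt range, and wt was the more variable group, with a coefficient of variation of 15.5% against 5.51%. The log2 fold change was -0.06 ± 0.12 (SE), its 95% interval reaching from -0.33 to 0.22 (adjusted p = 0.992, edgeR).

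Fpr2 (ENSMUSG00000052270.7, plus strand of chr17:17887824-17893952) was at 54.6, 60.3 and 62.1 CPM in the mutant libraries and at 62.1, 68.9 and 43.1 CPM in the wt libraries. The highest and the lowest library were both wt, replicates 2 and 3, the same replicates that bounded Fpr1. Its log2 fold change was 0.02 ± 0.17 (SE), its 95% interval reaching from -0.36 to 0.41 (adjusted p = 0.998, edgeR). On the linear scale the intervals ran from 0.796-fold to 1.16-fold for Fpr1 and from 0.778-fold to 1.33-fold for Fpr2.

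Among the complement receptors C5ar1 showed the tightest groups. It (ENSMUSG00000049130.6, minus strand of chr7:16246743-16259540) was at 2569, 2748 and 2709 CPM in the mutant libraries and at 2287, 2483 and 2420 CPM in the wt libraries. The groups did not overlap, and the gap between the lowest mutant and the highest wt library was smaller than the range within either group. The mutant mean was 1.12 times the wt mean, with a log2 fold change of 0.16 ± 0.08 (SE), a 95% interval of -0.0094 to 0.33, an unadjusted p of 0.062 and an adjusted p of 0.767 by edgeR. The coefficient of variation was 3.53% in mutants and 4.17% in wt.

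C5ar2 (ENSMUSG00000074361.10, minus strand of chr7:16234585-16244154) lies next to C5ar1 and was at 70.4, 74.2 and 62.6 CPM in the mutant libraries and at 66.8, 72.6 and 78.6 CPM in the wt libraries. The groups overlapped, with the lowest value in mutant replicate 3 and the highest in wt replicate 3. Its log2 fold change was -0.07 ± 0.12 (SE), its 95% interval reaching from -0.35 to 0.20 (adjusted p = 0.981, edgeR).

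C3ar1 (ENSMUSG00000040552.8, minus strand of chr6:122847138-122856161) had 84, 6 and 16 counts in mutant replicates 1 to 3 and 0, 14 and 34 counts in wt replicates 1 to 3, which correspond to 2.32, 0.203 and 0.492 CPM and to 0, 0.462 and 1.06 CPM. The groups overlapped, and the mutant mean rested on replicate 1. The 95% interval of its log2 fold change ran from -1.91 to 3.88 around 0.98 ± 1.30 (SE), and the adjusted p was 0.964 by edgeR. The sign turned without mutant replicate 1, where the log2 fold change was -0.54. Its coefficient of biological variation was 1.06, above 88.6% of the 1998 tested genes within 1.5-fold of its mean CPM, where the median was 0.735. The interval therefore includes differences of several-fold in either direction. The same library, mutant replicate 1, also had the highest level of Cx3cr1, a chemokine receptor of monocytes, at 16.3 CPM against 0.881 to 6.21 CPM in the other 5, while the complement genes C1qa, C1qb and C1qc of tissue macrophages were at 3.70, 5.14 and 5.03 CPM there and between 2.52 and 8.18 CPM elsewhere. The part of such cells in the C3ar1 counts was not tested.

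Of the receptors for lipids, Ptafr had the smallest p of the 9 genes. Ptafr (ENSMUSG00000056529.7, plus strand of chr4:132564067-132582683) was at 731, 898 and 888 CPM in the mutant libraries and at 670, 791 and 638 CPM in the wt libraries. The groups overlapped, because mutant replicate 1 lay below wt replicate 2, and all 3 mutant libraries were above the wt mean. The mutant mean was 1.20 times the wt mean, a log2 fold change of 0.26 ± 0.12 (SE) whose 95% interval ran from 0.0042 to 0.52. The unadjusted p was 0.047 and the adjusted p 0.733 by edgeR, while DESeq2 gave an adjusted p of 0.454.

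Ltb4r1 (ENSMUSG00000046908.5, plus strand of chr14:55765962-55768494) was at 81.4, 96.9 and 93.3 CPM in the mutant libraries and at 94.04, 114 and 91.3 CPM in the wt libraries. All 3 mutant values were below the wt mean of 99.9 CPM, but 2 of them exceeded the lowest wt library. Its log2 fold change was -0.14 ± 0.13 (SE), its 95% interval reaching from -0.43 to 0.15 (adjusted p = 0.937, edgeR). Ltb4r2, the low-affinity receptor for leukotriene B4 that lies beside Ltb4r1, was at 0.154 to 0.553 CPM in the mutant libraries and 0.0657 to 1.09 CPM in the wt libraries and did not pass the filter on low counts.

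The 2 genes of the CC chemokine receptor family were both abundant and both overlapped between the groups. Ccr1 (ENSMUSG00000025804.5, minus strand of chr9:123962124-123968692) was at 2175, 2172 and 1970 CPM in the mutant libraries and at 1843, 2046 and 1853 CPM in the wt libraries. Mutant replicates 1 and 2 lay above all wt libraries, and replicate 3 lay below wt replicate 2. The log2 fold change was 0.14 ± 0.08 (SE), its 95% interval reaching from -0.05 to 0.32 (adjusted p = 0.851, edgeR). The means of C5ar1, Ptafr and Ccr1 and the summed level of the alveolar macrophage markers (given above) were all higher in mutants. The marker sums were 948, 802 and 1480 CPM in mutant replicates 1 to 3. In the same order, C5ar1 was at 2569, 2748 and 2709 CPM and Ptafr at 731, 898 and 888 CPM. The part of alveolar macrophages in the values of these receptors was not tested.

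Ccrl2 (ENSMUSG00000043953.12, minus strand of chr9:111054486-111057519) was at 5299, 6664 and 5035 CPM in the mutant libraries and at 6163, 5090 and 4486 CPM in the wt libraries. Mutant replicate 2 and wt replicate 1 were both far above the other 4 libraries, so that the groups overlapped over most of their range. Its log2 fold change was 0.11 ± 0.13 (SE), its 95% interval reaching from -0.18 to 0.41 (adjusted p = 0.958, edgeR), and the sign turned without mutant replicate 2 (-0.026). The edgeR coefficient of biological variation was 0.135 for Ccrl2, above 84.2% of the 19 tested genes within 1.5-fold of its mean CPM, whereas that of C5ar1 was 0.095, above 10.2% of the 59 such genes.

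**Figure D2:**
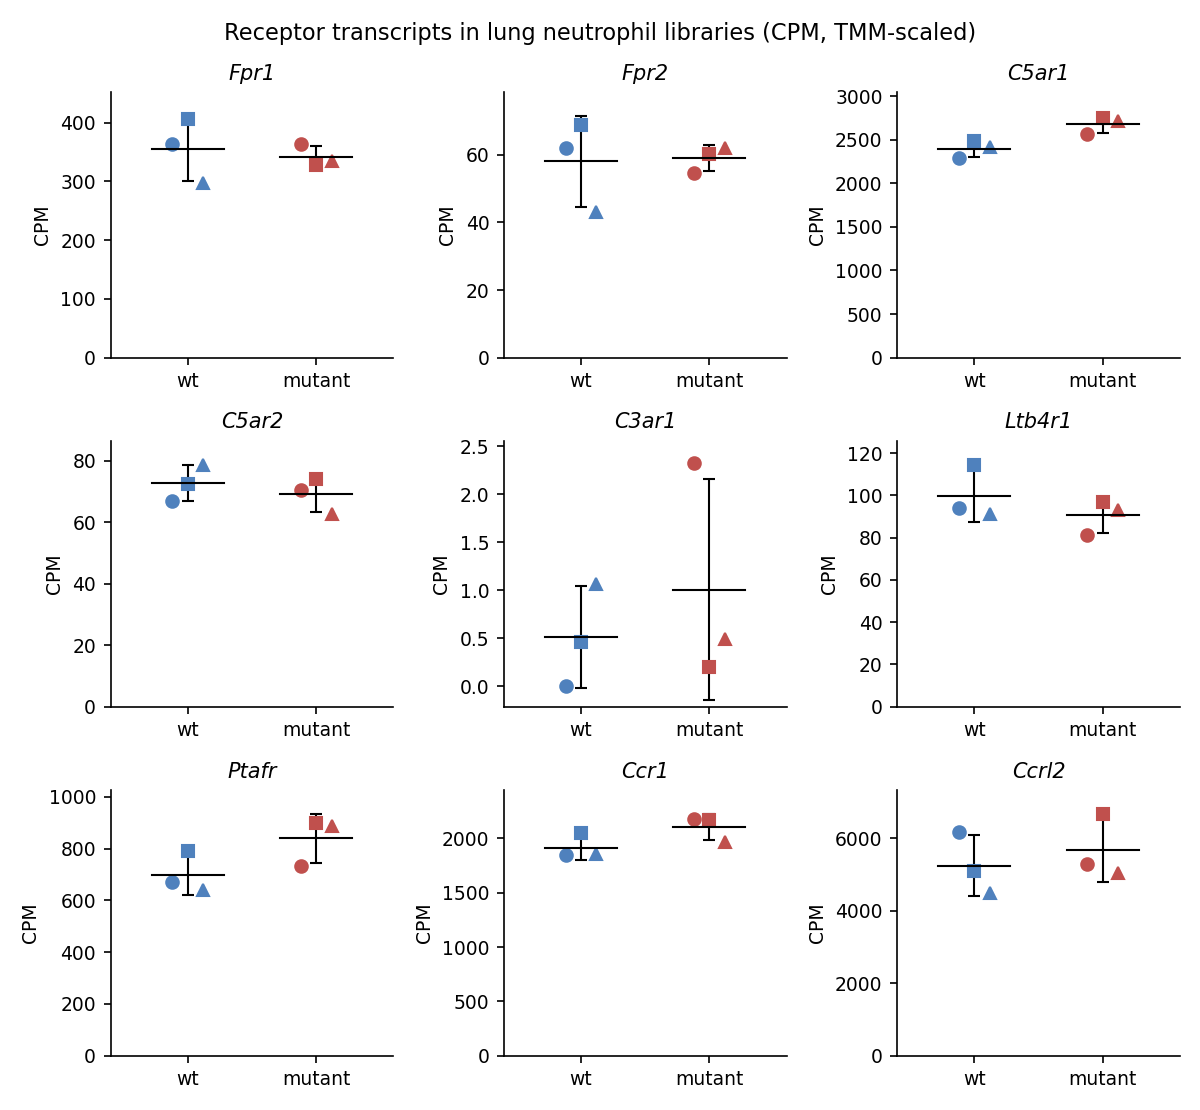
TMM-scaled CPM of the 9 receptors in the 3 wt (blue) and 3 mutant (red) libraries, on linear axes; circles, squares and triangles are replicates 1, 2 and 3, horizontal lines are means and error bars are SD. The groups are separate for C5ar1 (wt up to 2483, mutants from 2569 CPM) and overlap for the other 8 genes.

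**Figure D3:**
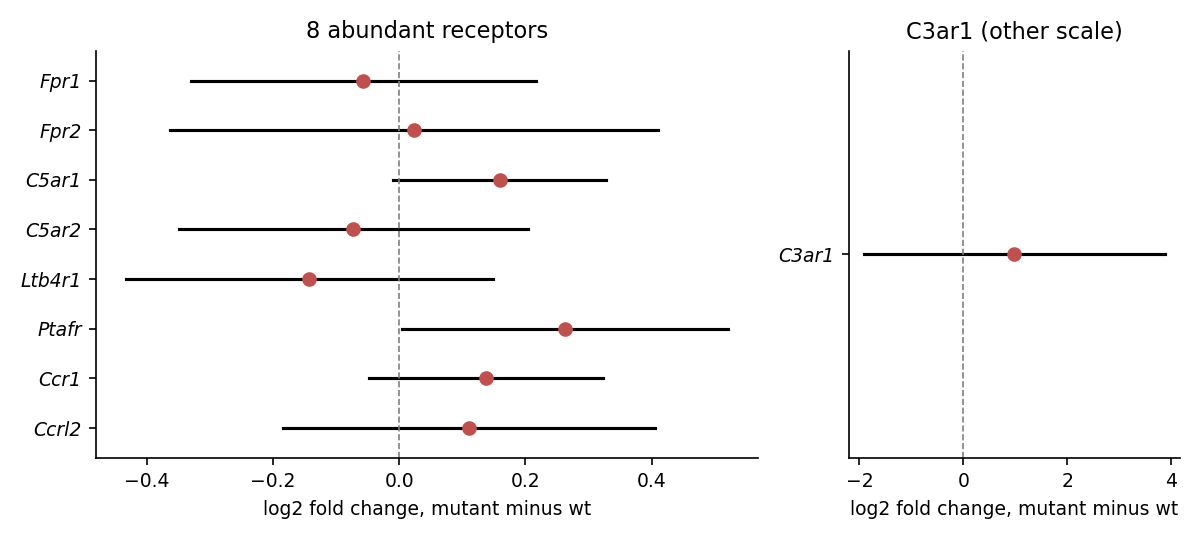
Log2 fold change of mutants over wt (points) with its 95% interval (lines) from edgeR, for 8 receptors on the left and for C3ar1 on its own scale on the right. The 8 intervals lie between -0.43 and 0.52, and that of C3ar1 runs from -1.91 to 3.88.

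Ratios between related receptors were taken within each library, where scaling between libraries plays no part. C5ar2 over C5ar1 sets the non-coupling C5a receptor against the signalling one, and its log2 ratio of counts was -5.19, -5.21 and -5.44 in mutants and -5.10, -5.10 and -4.94 in wt. All 3 mutant ratios lay below all 3 wt ratios, with a mean difference of -0.23. An exact permutation test (two-sided, 20 assignments of libraries to groups) gave p = 0.1, the smallest it can give with 3 libraries against 3, and 0.3 after Benjamini-Hochberg adjustment over the 3 pairs.

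The other pairs overlapped. Fpr2 over Fpr1 had log2 ratios of -2.74, -2.45 and -2.43 in mutants and -2.55, -2.56 and -2.79 in wt, a mean difference of 0.10 with an exact permutation p of 0.5 (adjusted 0.75). Ccrl2 over Ccr1 had log2 ratios of 1.28, 1.62 and 1.35 in mutants and 1.74, 1.32 and 1.28 in wt, a mean difference of -0.025 with an exact permutation p of 0.9 (adjusted 0.9). These are ratios of counts and not of levels, since the genes of a pair differ in length.

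**Figure D4:**
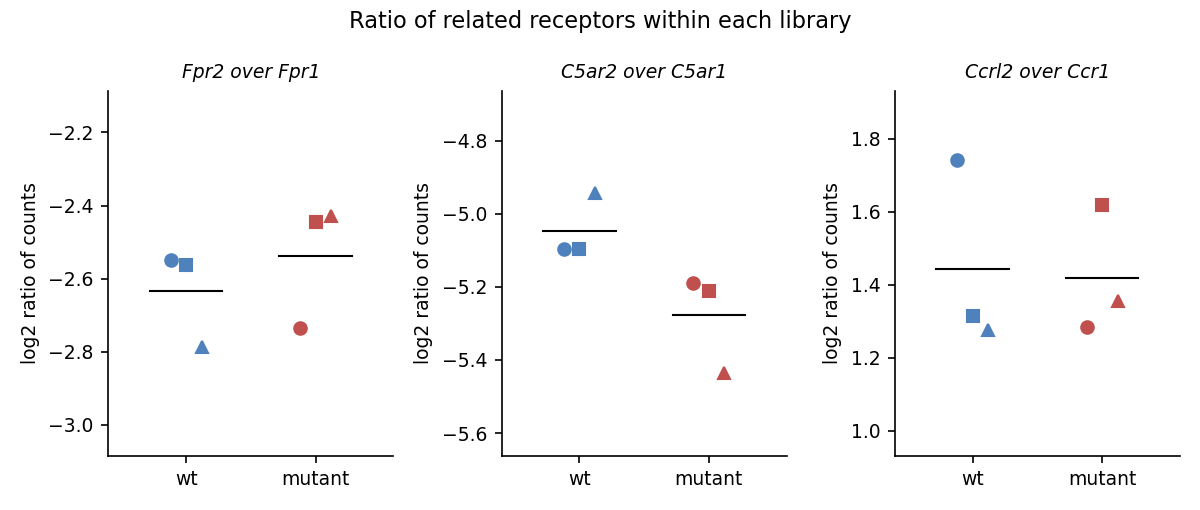
Log2 ratio of the counts of related receptors within each library for the 3 wt (blue) and 3 mutant (red) libraries, with lines at the group means; each vertical axis spans 1 log2 unit. For C5ar2 over C5ar1 the mutants lie at -5.19 or lower and wt at -5.10 or higher, and the other pairs overlap.

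Across the 6 libraries C5ar1 and Ccr1 lay closest among the 8 abundant receptors, with a root mean square difference of 0.072 between their centred log2 CPM. Fpr2 and C5ar2 lay furthest apart at 0.285. Fpr1 and Fpr2 differed by 0.134. A search over 2824 other genes whose mean reached 50 CPM put Sema4d, a semaphorin, at 0.043 and Nup98, a nuclear pore gene, at 0.045 closest to Ptafr. The nearest to C5ar1 were Mtfr1l at 0.033 and Dhrs3 at 0.035, and the nearest to Ccr1 were the splicing factor Srsf5 at 0.025 and Spty2d1 at 0.028. The distance is not scaled to a gene's own variation, so it is small between genes that vary little and does not measure a shared pattern. The root mean square of the centred values themselves was 0.092 for C5ar1, 0.097 for Ccr1 and 0.188 for Ptafr. These distances rest on 6 libraries and are a description only.

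The genes that make the receptors' ligands were described next, from a list of 18 of which 16 were tested. None passed the adjusted threshold by edgeR, 1 was higher at an unadjusted p under 0.05 and 0 were lower, against 3.51% and 3.22% of all tested genes, and the median log2 fold change was 0.21 with 11 positive and 5 negative. The 1 gene was Ccl3, a chemokine ligand of Ccr1, at 42.04, 40.5 and 64.2 CPM in the mutant libraries and 38.0, 36.5 and 19.1 CPM in the wt libraries, with an adjusted p of 0.690. The groups did not overlap, though 2 mutant and 2 wt libraries were within a few CPM of each other. Ccl6, another CCR1 ligand, had the highest level of the list at 718 RPKM and stood at 1393 ± 432 CPM in the mutant libraries and 1186 ± 328 CPM in the wt libraries (SD, n = 3 each).

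For the complement receptors, C3, whose protein yields C3a, was at 280 ± 17.7 CPM in the mutant libraries and 235 ± 37.3 CPM in the wt libraries (SD, n = 3 each; adjusted p = 0.789, edgeR), and Hc, the gene of C5, at 10.96 ± 3.80 and 7.45 ± 1.79 CPM. Anxa1, a ligand of Fpr2 that restrains neutrophil recruitment, was at 1235, 1090 and 1278 CPM in the mutant libraries and at 1338, 1479 and 1271 CPM in the wt libraries, groups that overlapped only through mutant replicate 3 and wt replicate 3 (log2 fold change -0.18, adjusted p = 0.799, edgeR). Camp and Saa3, which encode peptide and acute-phase ligands of Fpr2, were at 1.87 ± 1.26 and 0.164 ± 0.040 CPM in the mutant libraries and at 1.62 ± 0.942 and 0.272 ± 0.173 CPM in the wt libraries. Leukotriene B4 is made by Alox5 with Alox5ap and then Lta4h. These genes were at 558 ± 40.8, 281 ± 31.02 and 66.97 ± 4.09 CPM in the mutant libraries and at 617 ± 40.96, 297 ± 26.7 and 61.2 ± 8.31 CPM in the wt libraries. Lpcat2, which makes platelet-activating factor in myeloid cells, was at 573 ± 13.6 and 627 ± 13.2 CPM without overlap, and Rarres2, which encodes chemerin, at 3.72 ± 0.323 and 2.66 ± 0.673 CPM.

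Among 10 tested genes that break these ligands down, 0 passed the adjusted threshold by edgeR, 4 stood higher (unadjusted p under 0.05) and 1 lower, against 3.51% and 3.22% of all tested genes, and the median log2 fold change was 0.21 with 6 positive and 4 negative. Pafah2, a hydrolase of platelet-activating factor and oxidised phospholipids, was at 10.2, 5.35 and 8.67 CPM in the mutant libraries and at 2.33, 3.77 and 2.81 CPM in the wt libraries, a log2 fold change of 1.45 ± 0.35 (SE), and the adjusted p was 0.305 by edgeR and 0.019 by DESeq2. Every mutant library lay above every wt library. The peptidase genes Cpm, Anpep and Mme also had separate groups at low levels. Cpm was at 8.03 to 10.03 CPM in the mutant libraries and 2.86 to 5.98 CPM in the wt libraries. Anpep was at 2.24 to 3.63 and 0.727 to 1.06 CPM, and Mme at 4.7 to 6.5 and 2.0 to 4.0 CPM (adjusted p = 0.523, 0.503 and 0.667, edgeR).

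Of the 12 epithelial markers, 6 were higher in every mutant library than in every wt library. Another 1, Foxj1, was lower in every mutant library, at under 1 CPM on average. The surfactant gene Sftpc had the highest level, and its groups overlapped (192 CPM in mutant replicate 1, 263 CPM in wt replicate 2). The epithelial sums were 551 to 1016 CPM in the mutant libraries and 269 to 556 CPM in the wt libraries. The summed levels overlapped narrowly, through mutant replicate 1 and wt replicate 2. Of the 9 fibroblast markers, 4 were higher in every mutant library than in every wt library and 0 were lower. Their sums were 2609 to 3826 CPM in the mutant libraries and 2254 to 2643 CPM in the wt libraries, of which Gsn made up 78.9% on average. These sums overlapped through mutant replicate 1 and wt replicate 3. The groups of Gsn overlapped as well, with 2055 CPM in mutant replicate 1 and 2132 CPM in wt replicate 3. Over all tested genes, 6.82% had every mutant library above every wt library and 6.21% had every mutant library below. The part of epithelial cells, fibroblasts and the alveolar macrophages described above in the values of the peptidases, Pafah2 and C3 was not tested. Of the 10 breakdown genes, 4 had every mutant library above every wt library and 1 had every mutant library below, against 6.82% and 6.21% of all tested genes. The groups overlapped for Pla2g7, Cyp4f18, Pafah1b1, Pafah1b2 and Pafah1b3. The 1 gene below was Cpd, a carboxypeptidase gene and the 1 lower gene of the list. It was at 143, 140 and 144 CPM in the mutant libraries and 186, 164 and 161 CPM in the wt libraries (adjusted p = 0.667 by edgeR and 0.302 by DESeq2). Pla2g7, the secreted hydrolase of platelet-activating factor, was at 1518 ± 52.2 CPM in the mutant libraries and 1555 ± 74.8 in wt, and Cyp4f18, which inactivates leukotriene B4 in mouse neutrophils, at 1387 ± 53.2 and 1415 ± 93.7 CPM (SD, n = 3 each).

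The machinery that carries the receptors' signal was covered by 29 genes, of which 28 were tested. None passed the adjusted threshold by edgeR and 0 had an unadjusted p under 0.05 in either direction, against 6.73% of all tested genes, and the log2 fold changes ran from -0.30 for Gnb4 to 0.20 for Plcb2 with a median of -0.03. Rac2, the Rac switch of blood cells, led the list at 639 RPKM and was at 2013 ± 375 CPM in the mutant libraries and 1949 ± 124 CPM in the wt libraries (SD, n = 3 each). Gnai2, the main inhibitory G protein subunit of neutrophils, was at 228, 272 and 234 CPM in the mutant libraries and 286, 289 and 259 CPM in the wt libraries, groups that overlapped (adjusted p = 0.842, edgeR). Arhgap15, which switches Rac off, was at 248 ± 10.8 and 217 ± 33.2 CPM with overlap, and the kinase gene Akt1 at 134 ± 3.62 and 150 ± 6.03 CPM without (adjusted p = 0.858 and 0.864, edgeR).

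Of 15 genes listed under receptor desensitisation, most of which act to end the signal, all were tested, 0 passed by edgeR, and 0 stood higher and 2 lower (unadjusted p under 0.05), against 3.51% and 3.22% of all tested genes, with a median log2 fold change of 0.08 (8 positive, 7 negative). Rgs1, which speeds the shut-off of G protein subunits, was at 86.1, 57.5 and 68.6 CPM in the mutant libraries and at 153, 98.0 and 85.5 CPM in the wt libraries. Its groups overlapped narrowly, with a log2 fold change of -0.67 ± 0.22 (SE) (adjusted p = 0.551, edgeR). Ric8a, a chaperone of G protein alpha subunits, was at 191, 205 and 167 CPM in the mutant libraries and at 211, 230 and 228 CPM in the wt libraries, without overlap (adjusted p = 0.738, edgeR). Rgs16 was near the floor, at 0.0923 to 1.25 CPM in the mutant libraries and 0 to 0.460 CPM in the wt libraries.

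Of 28 other chemoattractant receptors 19 were tested, 0 passed by edgeR, 2 stood higher and 2 lower (unadjusted p under 0.05), against 3.51% and 3.22% of all tested genes, and the median log2 fold change was -0.0040 (9 positive, 10 negative). Cxcr2, the receptor for the neutrophil chemokines of the CXC family, stood at 753 RPKM, between C5ar1 and Ccr1. Its counts gave 1991, 2136 and 1946 CPM in the mutant libraries and 2623, 2475 and 2605 CPM in the wt libraries, with no overlap, a log2 fold change of -0.34 ± 0.08 (SE), and the adjusted p was 0.294 by edgeR and 0.011 by DESeq2. Hcar2, a receptor for niacin and ketone bodies, was at 2447, 1932 and 2231 CPM in the mutant libraries and 1439, 1807 and 1797 CPM in the wt libraries, and Ccr7, which guides cells to lymph nodes, at 17.6, 19.4 and 28.8 against 10.4, 8.72 and 15.9 CPM (adjusted p = 0.484 and 0.498, edgeR). Both had separate groups. So did P2ry2, the other lower gene, at 70.7, 70.1 and 81.3 CPM in the mutant libraries and 88.2, 88.3 and 107 CPM in the wt libraries. Its adjusted p was 0.601 by edgeR. Of the 19 tested genes, 2 had every mutant library above every wt library and 2 had every mutant library below. The shares over all tested genes were 6.82% and 6.21%. The further formyl peptide receptor genes Fpr-rs3, Fpr-rs4, Fpr-rs6 and Fpr-rs7 had no count in any library, so that 3 counts bound each of them at 0.102 CPM or lower.

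**Figure D5:**
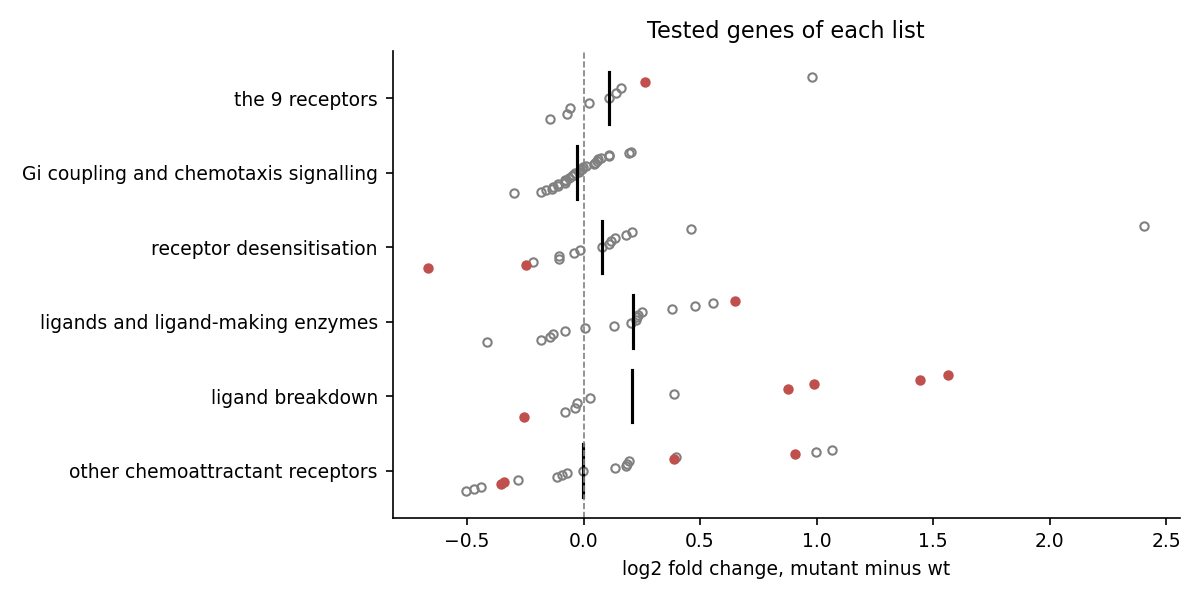
Log2 fold change of mutants over wt for every tested gene of the 9 receptors and of the 5 related lists, 1 point per gene; filled red points have an unadjusted edgeR p under 0.05, which holds for 1 of the 9 receptors, and vertical bars are list medians. No gene in the plot passed the adjusted threshold.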

How the data were processed

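Neutrophils sorted as Ly6G-positive cells from digested lungs were profiled in 6 libraries, made from 2 ng of total RNA by SMART-Seq v2, per the labels' protocols. The authors deposited raw read counts per gene, whole numbers that are not normalized. STAR, featureCounts and build GRCm38 are named in the submitters' processing notes, while their versions, the annotation and the handling of strand were not given in the sources used here. Reads carry no molecular identifiers and include PCR copies. Symbols came from GENCODE M21, by which 55394 of 55487 identifiers could be named. Replicate numbers follow accession order, so whether mutant and wt libraries were paired is not known.

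Genes were kept by filterByExpr (minimum count 10), scaled by TMM and tested by the quasi-likelihood method of edgeR 4.0.16 in R 4.3.3. P-values were adjusted over all tested genes by Benjamini and Hochberg, with a threshold of 5%. The standard error is the log2 fold change over the square root of F. RPKM is CPM per kilobase of the deposited exon length. Pair ratios used a prior count of 0.5. Alternatives were DESeq2 1.42.0, limma-voom (limma 3.58.1), other scalings and filters, and leaving out each library. Named genes are the 9 receptors, Tgfbr2, the 3 genes with the smallest p of each list and the nearest 2 genes of 3 receptors. The others were chosen after their values were seen, for their role as ligand, enzyme, receptor or marker. The receptors and lists were chosen with earlier results of these data known.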

Additional observations from a re-analysis of the deposited data

How the results depend on the processing

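No receptor was called under any of the 12 alternatives, and the smallest adjusted p was 0.431 (Ptafr, with only genes of at least 10 CPM tested). Directions held in 102 of 107 refits. Leaving out single libraries moved the log2 fold change of Fpr1 between -0.17 and 0.051, of Fpr2 between -0.15 and 0.17, of C3ar1 between -0.54 and 2.10 and of Ccrl2 between -0.026 and 0.24; Fpr1 turned positive without wt replicate 2, Fpr2 negative without mutant replicate 3 (-0.01) or wt replicate 3 (-0.15), C3ar1 negative without mutant replicate 1 and Ccrl2 negative without mutant replicate 2. The difference in the Ccrl2 over Ccr1 ratio ran from -0.12 to 0.12 and turned positive without mutant replicate 1 (0.04), mutant replicate 3 (0.0071) or wt replicate 1 (0.12). Without a change of sign, C5ar2 ran from -0.13 to -0.0065 (lowest without mutant replicate 2, nearest 0 without mutant replicate 3), Ltb4r1 from -0.20 (without wt replicate 3) to -0.03 (without wt replicate 2) and the Fpr2 over Fpr1 difference from 0.018 (without wt replicate 3) to 0.19 (without mutant replicate 1). The C5ar2 over C5ar1 difference stayed between -0.28 and -0.15. Its unadjusted exact permutation p stayed at 0.1 except without wt replicate 3, where it was 0.2. Mean levels of the 9 receptors stayed within 1 SD in all 72 comparisons with an alternative, although for C3ar1 that SD exceeds the mean and its level moved from 0.176 to 0.103 RPKM without mutant replicate 1. C3ar1 was not tested among genes of at least 10 CPM. Over all genes, edgeR called 1 higher and 0 lower, against 77 and 73 by DESeq2, 41 and 29 with no filter on low counts and 14 and 5 among genes of at least 10 CPM; without single libraries the counts ran from 0 to 1 in each direction, with 0 higher without mutant replicate 1, wt replicate 1 or wt replicate 3 and 1 lower without mutant replicate 2. DESeq2 called 1 ligand breakdown gene higher (Pafah2) and 1 other receptor lower (Cxcr2), where edgeR called 0 of each; the cause was not tested. No paired analysis was possible because the labels carry no replicate numbers that pair mutant with wt libraries.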
